A study of Homo sapiens with 6 samples.

Results

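Solute carriers are membrane proteins that move amino acids, sugars, ions, metals, vitamins, nucleotides and drugs across the plasma membrane and the membranes of organelles, either down a gradient or coupled to the movement of an ion. In plasma cells and in multiple myeloma, a cancer of plasma cells, they feed a high rate of antibody synthesis, and cystine and neutral amino acid transporters are known for their part in stress resistance. The regions described here are those of an ATAC-seq table that were assigned to a protein-coding gene whose symbol starts with SLC and a digit, or with SLCO. A region was assigned to the protein-coding gene of the RefSeq GRCh38 table that contained it, and otherwise to the nearest gene body. This gave 88 regions at 62 genes, out of 3838 regions in the table and 398 solute carrier genes in the reference. A gene name below therefore says where a region lies, and no gene expression was analysed here.

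ATAC-seq measures chromatin accessibility through a transposase that inserts sequencing adapters into open DNA. The libraries came from 3 human lines of myeloma (RPMI8226, KMS-11, KMS-12), all labelled wild type, each with 1 library after DMSO, the solvent control, and 1 after 1 µM JQ1 for 72 h. That makes 6 libraries, 3 per group. JQ1 is a small molecule that displaces BET bromodomain proteins, which read acetylated histones, from chromatin. The log base and direction of the deposited values are not given in their header, and base 2 with DMSO as the denominator was assumed. The number of reads is unknown, no level of accessibility in either treatment is held in the table, and a value within 1 line has no replicate check, so the 3 lines serve as the replicates. The labelled cell type could not be checked against markers with fold changes alone.

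Accessible regions at the start of a gene mark its promoter, and of the 88 regions 2 (2.27%) overlapped a 300-base promoter window of RefSeq, which runs from 250 bases before to 50 after a gene start, against 106 (2.76%) of all regions. Both were at promoters of solute carrier genes. SLC45A3, known as an androgen-regulated prostate protein and as a fusion partner of ETS genes in prostate cancer, had a region across its start (chr1:205679553-205680527), which also overlaps an end of the noncoding gene LOC105371701. SLC16A9, a monocarboxylate transporter family member, had the other (chr10:59708926-59710045). The 2 promoter windows are shown because they are the sequences at gene starts that the regions reach. Both are on the minus strand of GRCh38.p14, printed 5′ to 3′ along the gene, with the bases inside the region in capitals: 68 bases for SLC45A3 (chr1:205680460-205680759) and 245 for SLC16A9 (chr10:59709801-59710100).
SLC45A3: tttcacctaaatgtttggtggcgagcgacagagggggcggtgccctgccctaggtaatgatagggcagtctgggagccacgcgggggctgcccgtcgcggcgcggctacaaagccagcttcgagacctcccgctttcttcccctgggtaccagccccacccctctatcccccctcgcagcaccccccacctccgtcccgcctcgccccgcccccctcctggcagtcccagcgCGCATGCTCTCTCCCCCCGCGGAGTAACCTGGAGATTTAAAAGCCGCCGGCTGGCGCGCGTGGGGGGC
SLC16A9: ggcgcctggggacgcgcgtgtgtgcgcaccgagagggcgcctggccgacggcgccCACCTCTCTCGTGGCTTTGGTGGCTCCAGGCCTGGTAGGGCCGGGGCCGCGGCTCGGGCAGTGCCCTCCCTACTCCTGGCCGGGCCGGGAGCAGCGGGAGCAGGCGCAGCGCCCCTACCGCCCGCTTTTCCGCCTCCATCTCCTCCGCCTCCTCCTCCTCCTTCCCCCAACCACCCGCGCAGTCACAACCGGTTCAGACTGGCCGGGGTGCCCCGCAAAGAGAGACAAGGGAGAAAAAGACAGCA

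The 2 sequences were searched on both strands for GGAAG, the core of sites for ETS factors such as FLI1, for its tandem form GGAAGGAA, for the E-box CACGTG bound by MYC, and for TGACTCA bound by AP-1. The tandem form contains the single one. Each of the 2 windows held GGAAG 1 time (inside the region for SLC16A9, outside it for SLC45A3), as did 71.8% of 34943 RefSeq windows of that length at least once, and neither held the other 3. Those were found in 3.68%, 7.23% and 4.96% of all windows. A second SLC16A9 window (chr10:59710030-59710329), of which the region covers 16 bases, held CACGTG 1 time, outside the covered bases. In the authors' deposited table the SLC45A3 region had a log2 fold change of -0.086 in RPMI8226, -0.63 in KMS-11 and -1.32 in KMS-12. For the SLC16A9 region the authors' deposited table gives -0.096 in RPMI8226, -0.57 in KMS-11 and -1.27 in KMS-12. In both, KMS-12 was the lowest line and RPMI8226 was near 0, and the means over lines were -0.68 ± 0.62 and -0.64 ± 0.59 (SD, n = 3 lines each). Without KMS-12 they were -0.36 and -0.33. The KMS-12 value of the SLC45A3 region was shared by 21 regions of the table, and that of the SLC16A9 region by 124.

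Most of the regions lay away from gene starts. Of the 88, 42 (47.7%) lay inside a solute carrier gene, 2 overlapped a gene end and 44 lay outside, at a median of 46.7 kb from the gene (range 1.45 to 1508 kb). Over all regions 46.0% lay inside a protein-coding gene. At 21 regions the gene was over 50 kb away and at 5 over 500 kb, where the name is little more than a landmark. A gene start was listed for 67 regions, whose centres had a median distance of 46.3 kb from the nearest one. Of these 2 were within 1 kb, 8 within 5 kb and 19 beyond 100 kb. Regions without a listed start are left out of these counts. Among them were the region 2.93 kb from SLC16A5 and the region inside SLC38A3, close to an end of the gene. A lncRNA gene contained or was nearer to 35 of the 88, and when such genes were allowed to compete 58 regions kept a solute carrier symbol, antisense genes included. Of the solute carrier genes 15.6% had a region, against 14.4% of 20056 protein-coding genes, and 8.79% against 7.39% contained one. The solute carrier genes that contained a region were longer, with a median of 63.3 kb against 33.9 kb for those that did not. The same lengths over all protein-coding genes were 114 and 21.6 kb.

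**Figure D1:**
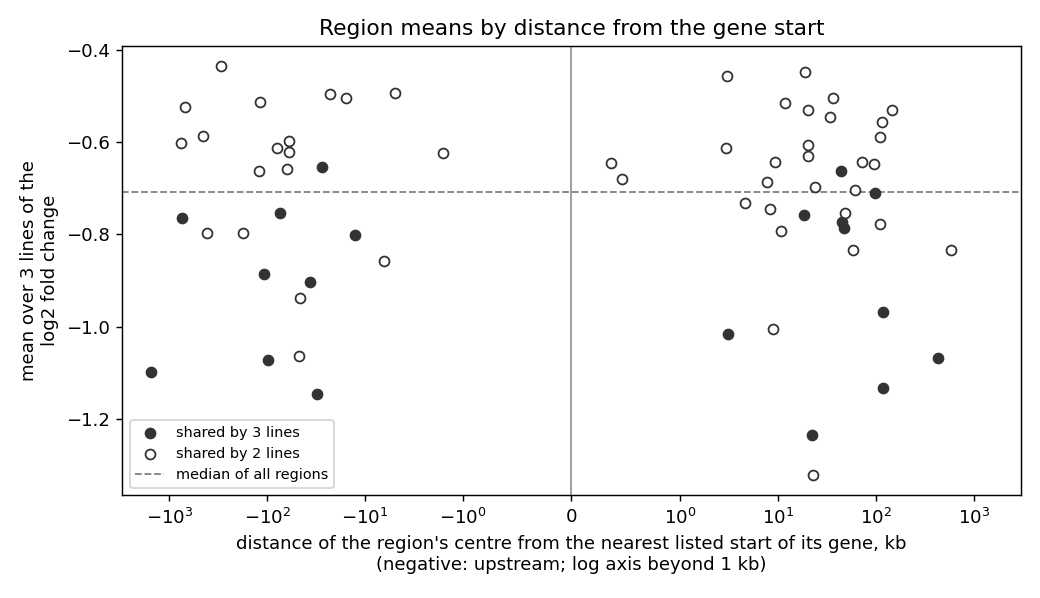
Mean log2 fold change over 3 lines (vertical axis) against the distance in kb of a region's centre from the nearest listed start of its gene (horizontal axis, log beyond 1 kb, upstream negative) for the 67 regions with a listed start. Filled points are shared by 3 lines and open points by 2; the 2 points within 1 kb of a start are SLC45A3 and SLC16A9.

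The folds of these regions were close to those of the table as a whole. Their mean over lines had a median of -0.68 (range -1.32 to -0.41), a JQ1 to DMSO ratio of 0.622, against -0.71 over all regions. By line, the authors' deposited table gave the 88 regions a median log2 fold change of -0.59 in RPMI8226 (lowest -1.40), -0.73 in KMS-11 (lowest -1.68) and -0.75 in KMS-12 (lowest -2.70). KMS-12 had the lowest value in 37 regions (42.0%, and 44.6% of all regions), RPMI8226 in 17 (19.3% against 23.3%) and KMS-11 in 34 (38.6% against 32.1%). The table holds no fold above 0 in any line, and the number of lines it counts as common to a region equals the lines at or below -0.5, so the regions were selected for low folds before any test. limma, a linear model with variances pooled over all 3838 regions, gave 73 of the 88 (83.0%) an adjusted p (Benjamini-Hochberg) under 0.05 for a mean below 0, where 87.5% of all regions passed. The share is near that background, and a test against 0 repeats the selection, so calls are not read as results about these genes. limma gave every region the same standard error. A call therefore depends on the mean alone and does not show that the lines of a region agree. The calls numbered 24 when KMS-11 was left out, 48 when KMS-12 was and 47 when RPMI8226 was. Of all regions 34.1%, 52.0% and 55.0% were called in these cases. Whichever line was left out, 13 regions kept a call, as did 650 of all regions.

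By the authors' deposited table, 25 of the 88 regions (28.4%) were shared by 3 lines, near the 24.8% of all regions, and 10 (11.4%) had a mean of -1 or lower, near the 12.3% of all regions. The shared regions were more often outside the genes: 7 of 42 regions inside a gene (16.7%) and 18 of 46 at an end or outside (39.1%) were shared by 3 lines. Over all regions these shares were 24.7% and 24.9%, and the difference was not tested. In the 63 regions common to 2 lines, RPMI8226 was the one above -0.5 in 31 (49.2%, and 42.8% of all such regions), KMS-12 in 18 and KMS-11 in 14. The fold of the line above -0.5 lay between -0.1 and 0 in 20 of the 63 (31.7%, and 21.1% over all regions common to 2 lines). Many values recur exactly in the table: a value found in at least 10 regions was held by 44 of the 88 regions for KMS-12, 42 for KMS-11 and 4 for RPMI8226. The 26 regions with no such value had a median mean of -0.74.

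**Figure D2:**
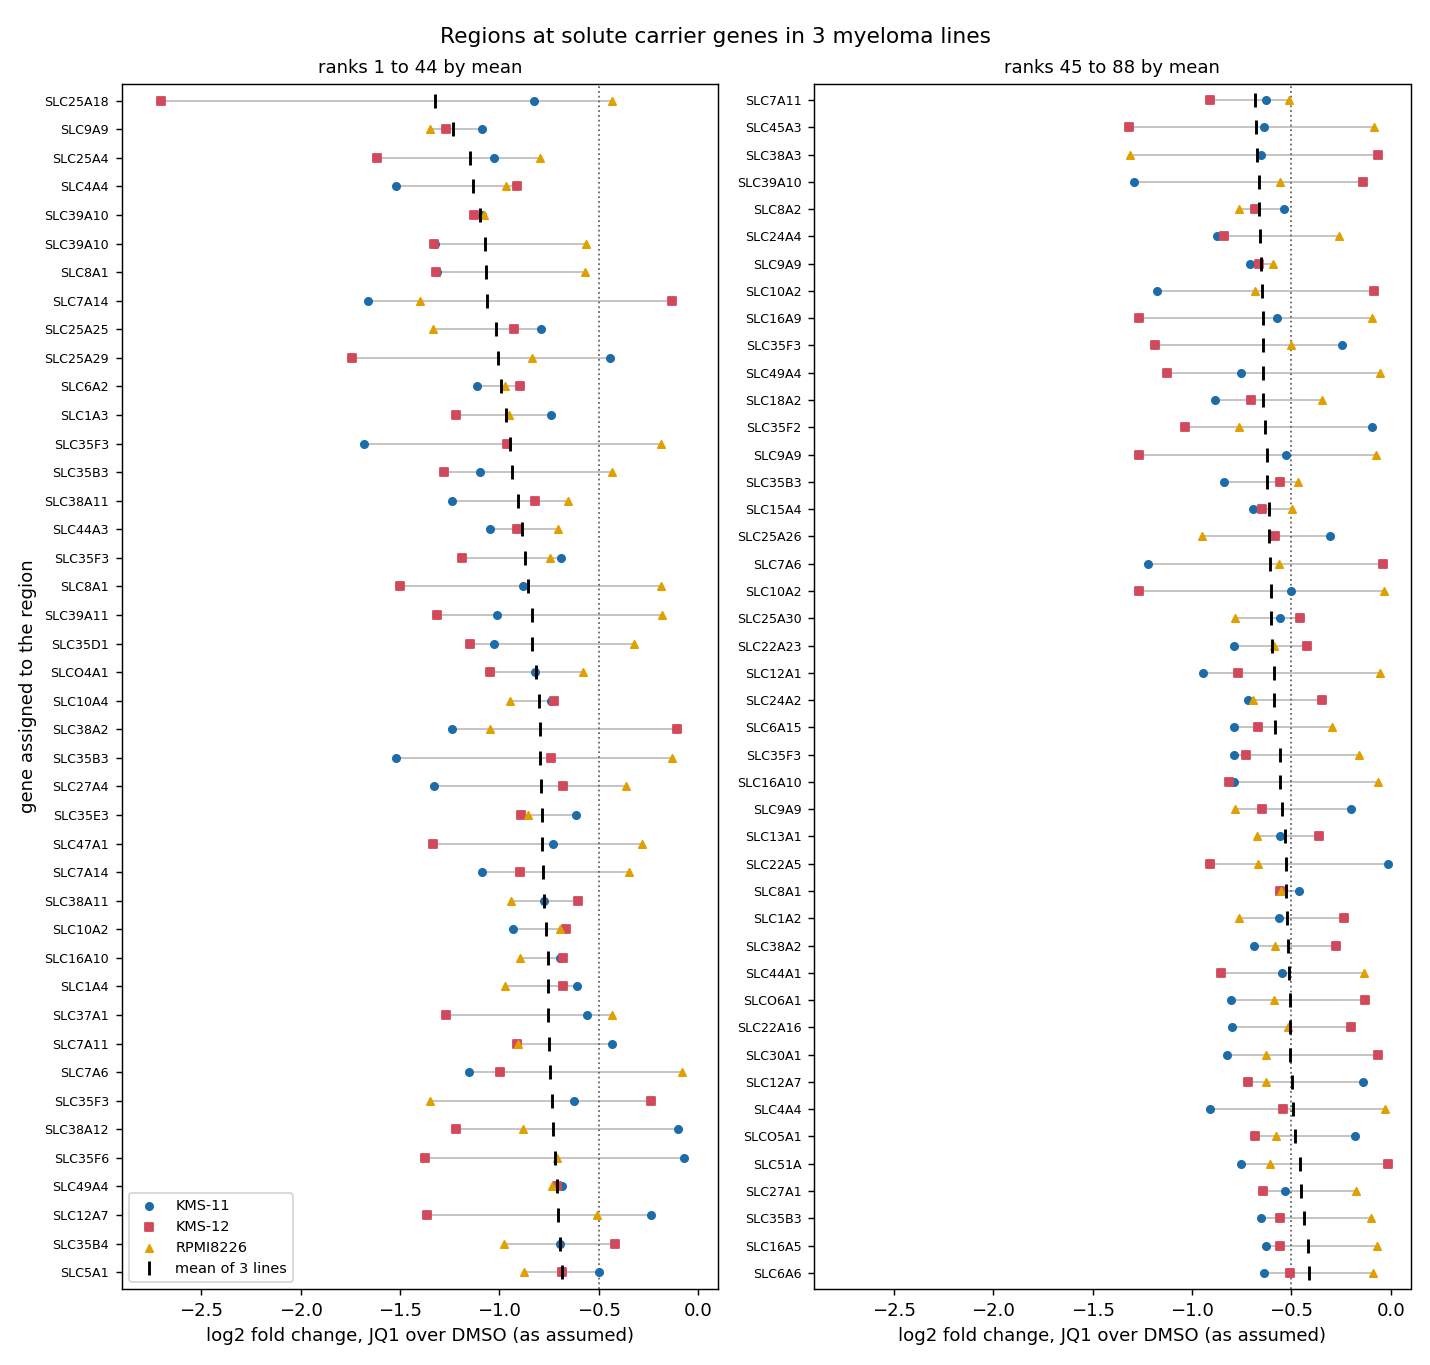
Log2 fold change (horizontal axis) of 86 of the 88 regions in KMS-11 (circles), KMS-12 (squares) and RPMI8226 (triangles), ranked by their mean (black bar) and named by gene; the dotted line is at -0.5. At rank 1 SLC25A18 has its KMS-12 point at -2.70, far from its other lines, while the 3 points of SLC9A9 at rank 2 lie between -1.35 and -1.09.

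Amino acid and peptide transporters formed the largest class. Of 69 genes, 14 had 19 regions, with a median mean of -0.74 (range -1.06 to -0.41). Of the 19, 16 passed limma and 6 were shared by 3 lines. Over all regions the shares were 87.5% and 24.8%. Counts by class, here and below, are to be read beside these shares and are not results about a class. SLC6A2 and SLC1A3, known from nerve and glial cells, had regions with low folds in all lines. The SLC6A2 region lay nearer to the noncoding gene LOC105371280, and its KMS-12 value was shared by 69 regions of the table. A region 46.7 kb from SLC6A2, the noradrenaline transporter (chr16:55752887-55753667), had -0.97 in RPMI8226, -1.11 in KMS-11 and -0.89 in KMS-12 in the authors' deposited table, a mean of -0.99 ± 0.11 (SD, n = 3 lines). A region 35.6 kb from SLC1A3, a glutamate and aspartate transporter, inside SLC1A3-AS1 (chr5:36723979-36724178), had -0.95 in RPMI8226, -0.74 in KMS-11 and -1.22 in KMS-12 in the authors' deposited table, a mean of -0.97 ± 0.24 (SD, n = 3 lines). SLC7A14, a member of the cationic amino acid transporter family, was uneven at its outer region, inside SLC7A14-AS1 and 46.6 kb upstream (chr3:170632690-170633174): the authors' deposited table gives -1.40 in RPMI8226, -1.66 in KMS-11 and -0.13 in KMS-12. KMS-12 was near 0 there, and the mean of -1.06 ± 0.82 (SD, n = 3 lines) came from the other two lines. The region inside SLC7A14 (chr3:170476225-170476581) had its weakest fold in RPMI8226, with -0.35 in RPMI8226, -1.09 in KMS-11 and -0.90 in KMS-12 in the authors' deposited table. Both regions of SLC38A11, a putative sodium-coupled amino acid transporter, were shared by 3 lines: the one 36.2 kb upstream (chr2:164991710-164992312) had a mean of -0.90 ± 0.30 and the one inside (chr2:164909998-164910778) -0.77 ± 0.17 (SD, n = 3 lines each).

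Of 13 transporter genes listed for plasma cells and myeloma, 4 had 6 regions, with a median mean of -0.72 against -0.71 over all regions. Of the 6 regions 4 passed limma and 2 were shared by 3 lines. Over all regions the shares were 87.5% and 24.8%. SLC7A11, the cystine and glutamate exchanger that supplies cysteine for glutathione, was the nearest coding gene to a pair of regions, but they lay 320 and 368 kb away, nearest to the noncoding gene LINC00499. By the authors' deposited table the first (chr4:138562622-138562926) had -0.91 in RPMI8226, -0.43 in KMS-11 and -0.91 in KMS-12. The second (chr4:138609865-138610319) had -0.51 in RPMI8226, -0.62 in KMS-11 and -0.91 in KMS-12 in the authors' deposited table. In KMS-12 both carry the same value, which 213 regions of the table share. SLC38A2, a glutamine and alanine transporter induced by amino acid shortage, had a region inside it (chr12:46360965-46361197, mean -0.51 ± 0.21) and one 177 kb upstream, inside SLC38A4-AS1 (chr12:46549578-46550230, mean -0.80 ± 0.61; SD, n = 3 lines each). The outer SLC38A2 region had -1.05 in RPMI8226, -1.24 in KMS-11 and -0.11 in KMS-12 in the authors' deposited table, so that KMS-12 was near 0 while the other lines were below -1. SLC1A4, a neutral amino acid exchanger, was 73.0 kb from a region inside the noncoding gene LINC02245 (chr2:64914892-64915434). All 3 lines of that region were low in the authors' deposited table, at -0.97 in RPMI8226, -0.61 in KMS-11 and -0.68 in KMS-12, with a mean of -0.75 ± 0.19 (SD, n = 3 lines). The region 116 kb from the choline transporter gene SLC44A1 (chr9:105127608-105128265) averaged -0.51 ± 0.36 (SD, n = 3 lines) and -0.34 without KMS-12.

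Of 9 transporter genes known as MYC-linked, SLC7A6 was the one with a region. It encodes a light chain that exchanges basic for neutral amino acids in a complex with SLC3A2. A pair of regions lay inside it, and both passed limma, but neither was shared by 3 lines. The authors' deposited table gives the first (chr16:68272606-68273087) -0.083 in RPMI8226, -1.15 in KMS-11 and -0.998 in KMS-12. For the second (chr16:68284007-68285360), 1354 bp wide, the authors' deposited table gives -0.56 in RPMI8226, -1.22 in KMS-11 and -0.037 in KMS-12. KMS-11 was below -1 in both, while RPMI8226 was near 0 in the first and KMS-12 in the second. Their means were -0.74 ± 0.58 and -0.61 ± 0.59 (SD, n = 3 lines each), and the second was -0.30 without KMS-11. The other genes of that list, among them SLC3A2, SLC7A5, SLC1A5, SLC2A1 and SLC16A1, had no region assigned. The remaining 6 regions of the amino acid class had means from -0.73 to -0.41, the weakest at 31.8 kb from SLC6A6, the taurine transporter gene.

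**Figure D3:**
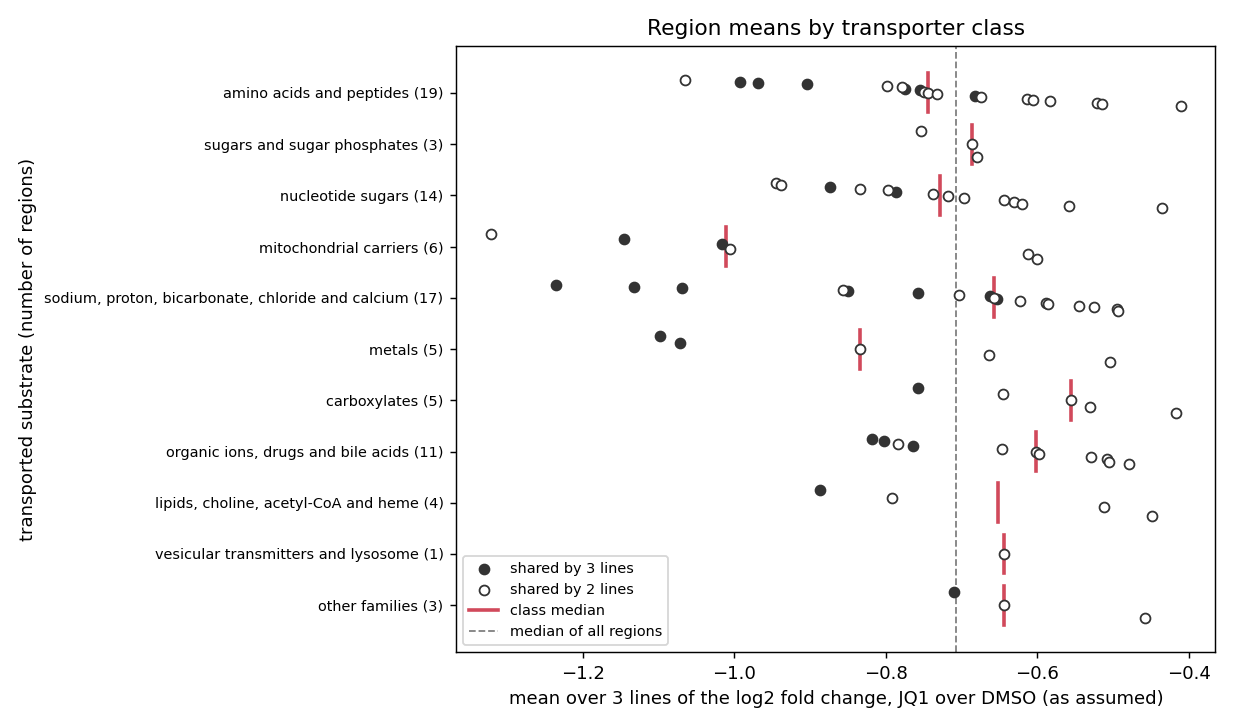
Mean log2 fold change over 3 lines of each region (horizontal axis), by the class of substrate its gene's family is known for (vertical axis, with the number of regions). Filled points are shared by 3 lines and open points by 2; red bars are class medians, from -1.01 for 6 mitochondrial carrier regions to -0.56 for 5 carboxylate transporter regions, and the dashed line is the median of all regions, -0.71.

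Mitochondrial carriers of the SLC25 family exchange metabolites across the inner mitochondrial membrane. Of 48 genes 6 had 1 region each, with a median mean of -1.01, the lowest of the classes with all lines; 6 passed limma and 2 were shared by 3 lines. Without KMS-12 this median was -0.65, and the metal class was the lowest at -0.92. The metal class was the lowest also without RPMI8226, at -1.11 against -0.97, while without KMS-11 the mitochondrial median was -1.17. The region inside SLC25A18, a mitochondrial glutamate carrier (chr22:17586278-17586573), had the lowest mean of the 88 regions, -1.32 ± 1.21 (SD, n = 3 lines). Its log2 fold changes in the authors' deposited table were -0.43 in RPMI8226, -0.83 in KMS-11 and -2.70 in KMS-12, so its rank rests on KMS-12, and without that line its mean was -0.63. It also lay inside the noncoding gene LOC101929372. SLC25A29, a carrier of basic amino acids, also had KMS-12 as the lowest line at the region inside it (chr14:100297338-100297734), with -0.83 in RPMI8226, -0.44 in KMS-11 and -1.74 in KMS-12 in the authors' deposited table. Its mean was -1.01 ± 0.67 (SD, n = 3 lines), or -0.64 without KMS-12. The other two low regions of this class were shared by 3 lines. The region 30.8 kb upstream of SLC25A4, an ADP/ATP exchanger of heart and muscle (chr4:185112140-185112486), had -0.79 in RPMI8226, -1.03 in KMS-11 and -1.62 in KMS-12 in the authors' deposited table and a mean of -1.15 ± 0.42 (SD, n = 3 lines). Inside SLC25A25, a calcium-regulated carrier of ATP-Mg and phosphate, a region 3.11 kb downstream of one of its starts (chr9:128094435-128094686) had -1.34 in RPMI8226, -0.79 in KMS-11 and -0.93 in KMS-12 in the authors' deposited table, a mean of -1.02 ± 0.28 (SD, n = 3 lines). RPMI8226 was the lowest line at SLC25A25 and the highest at SLC25A4. At SLC25A25 the KMS-11 value was shared by 46 regions of the table and the KMS-12 value by 108. The SLC25A4 region lay nearer to the noncoding gene LINC02436. The regions at SLC25A26 and SLC25A30 had means of -0.61 and -0.60.

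Exchangers and cotransporters of sodium, protons, bicarbonate, chloride and calcium set cell pH, volume and calcium. In this class 9 of 53 genes had 17 regions, with a median mean of -0.66; 14 passed limma and 7 were shared by 3 lines. SLC9A9, a sodium-proton exchanger of endosomes, had 4 regions within 62.0 kb around its start. The lowest, inside the gene (chr3:143826369-143826612), had -1.35 in RPMI8226, -1.09 in KMS-11 and -1.27 in KMS-12 in the authors' deposited table and a mean of -1.24 ± 0.13 (SD, n = 3 lines). All lines there were below -1, which among the 88 regions was the case in 2. Its KMS-12 value was shared by 124 regions of the table, one of them the region 1.45 kb upstream of the gene (chr3:143849917-143850188). For that upstream region the authors' deposited table gives -0.073 in RPMI8226, -0.53 in KMS-11 and -1.27 in KMS-12, so that RPMI8226, the lowest line at the first region, was near 0 at the second. Without KMS-12 the mean of the upstream region was -0.30 in place of -0.62. The other 2 regions had means of -0.65 ± 0.058 (chr3:143875568-143876267) and -0.54 ± 0.31 (chr3:143814267-143814871, SD, n = 3 lines each). Of these the former had a KMS-12 value shared by 175 regions of the table and the latter one shared by 25.

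SLC4A4, a sodium-bicarbonate cotransporter, held 2 regions with unequal folds. The one farther from the gene start (chr4:71456934-71457187) had -0.97 in RPMI8226, -1.52 in KMS-11 and -0.91 in KMS-12 in the authors' deposited table, a mean of -1.13 ± 0.34 (SD, n = 3 lines). The other (chr4:71230644-71231587) had -0.029 in RPMI8226, -0.91 in KMS-11 and -0.54 in KMS-12 in the authors' deposited table, and its mean of -0.49 ± 0.44 (SD, n = 3 lines) was -0.29 without KMS-11. KMS-11 was the lowest line at both, but the second region missed the limma threshold. The KMS-12 value of the region farther from the start was shared by 213 regions of the table. The sodium-calcium exchanger gene SLC8A1 had a region 100 kb beyond its end, inside its antisense gene SLC8A1-AS1 (chr2:39996681-39997107), with -0.57 in RPMI8226, -1.32 in KMS-11 and -1.32 in KMS-12 in the authors' deposited table and a mean of -1.07 ± 0.43 (SD, n = 3 lines). The region inside SLC8A1 (chr2:40458364-40458722) averaged -0.86 ± 0.66 (SD, n = 3 lines), or -0.54 without KMS-12. Another, 682 kb away (chr2:41194343-41194567), was even across lines at -0.52 ± 0.055 (SD, n = 3 lines), just short of the 3-line definition in KMS-11. SLC12A7, a potassium-chloride cotransporter, had a 1380 bp region over its downstream end (chr5:1050299-1051678), the widest of the 88, with -0.51 in RPMI8226, -0.24 in KMS-11 and -1.37 in KMS-12 in the authors' deposited table. Its mean of -0.70 ± 0.59 (SD, n = 3 lines) was -0.37 without KMS-12. The region inside SLC12A7 (chr5:1134574-1134825) averaged -0.49 ± 0.31 (SD, n = 3 lines), and KMS-11 was its weakest line too. The remaining 4 regions of the class had means from -0.66 to -0.59.

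The regions of the metal class had zinc transporter genes as their nearest coding genes. In it 3 of 33 genes had 5 regions (4 past limma, 2 shared by 3 lines, median mean -0.83), and none of the regions lay inside its gene. SLC39A10 imports zinc at the plasma membrane and is known for its part in B cell survival and receptor signalling in mice. Of its 3 regions, none lay inside the gene, and all lay inside or nearer to noncoding genes (LINC01821, LINC01825 and LINC01827). The one 53.1 kb upstream of the gene body (chr2:195559360-195559957) had -0.56 in RPMI8226, -1.32 in KMS-11 and -1.33 in KMS-12 in the authors' deposited table, a mean of -1.07 ± 0.44 (SD, n = 3 lines). The one 76.5 kb upstream (chr2:195536228-195536522) had -0.55 in RPMI8226, -1.29 in KMS-11 and -0.14 in KMS-12 in the authors' deposited table, with KMS-12 near 0, and a mean of -0.66 ± 0.58 (SD, n = 3 lines), or -0.35 without KMS-11. Of the 12 regions with the lowest means the last SLC39A10 region was the most even (chr2:194104563-194105020), with -1.08 in RPMI8226, -1.09 in KMS-11 and -1.13 in KMS-12 in the authors' deposited table and a mean of -1.10 ± 0.026 (SD, n = 3 lines). It was 1508 kb from SLC39A10, farther than any other of the 88 regions from its gene. The region 135 kb from SLC39A11, inside the noncoding gene LINC00673, had a mean of -0.83. For SLC30A1, an exporter of zinc, the region was 28.3 kb away, inside the noncoding gene LOC107985260, and had a mean of -0.50.

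The SLC35 family, named for nucleotide sugar transport into the Golgi and endoplasmic reticulum, had 14 regions at 7 of 31 genes, with a median mean of -0.73; 13 passed limma and 2 were shared by 3 lines. SLC35F3, which has been linked to thiamine transport, had 5 regions over 426 kb, more than any other solute carrier gene, and each of the 3 lines was lowest in at least one of them. Outside the gene, 6.95 kb away (chr1:233897256-233897725), the authors' deposited table gives -0.74 in RPMI8226, -0.69 in KMS-11 and -1.19 in KMS-12, the one region of the 5 shared by 3 lines. Inside the gene, KMS-11 was lowest at chr1:234230696-234231038, with -0.19 in RPMI8226, -1.68 in KMS-11 and -0.96 in KMS-12 in the authors' deposited table. RPMI8226 was lowest at chr1:234315167-234315538, with -1.35 in RPMI8226, -0.63 in KMS-11 and -0.23 in KMS-12 in the authors' deposited table. KMS-12 was lowest at chr1:234111562-234112105, with -0.50 in RPMI8226, -0.24 in KMS-11 and -1.19 in KMS-12 in the authors' deposited table. The means of these 3 regions were -0.95 ± 0.75, -0.74 ± 0.57 and -0.64 ± 0.49 (SD, n = 3 lines each). Left without their lowest line they were -0.58 (without KMS-11), -0.43 (without RPMI8226) and -0.37 (without KMS-12). The last region along the chromosome (chr1:234322961-234323270) averaged -0.56 ± 0.35 (SD, n = 3 lines).

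SLC35B3, which brings the sulfate donor PAPS into the Golgi, was the nearest coding gene to 4 regions spread over 365 kb upstream of it, all of them closer to or inside noncoding genes. The nearest, 46.1 kb from the gene (chr6:8481698-8482001), had -0.43 in RPMI8226, -1.10 in KMS-11 and -1.28 in KMS-12 in the authors' deposited table, a mean of -0.94 ± 0.45 (SD, n = 3 lines). The others, at 59.0 (chr6:8494616-8495060), 296 (chr6:8731810-8732291) and 411 kb (chr6:8846741-8846945), averaged -0.62 ± 0.19, -0.44 ± 0.30 and -0.80 ± 0.70 (SD, n = 3 lines each), the last -0.43 without KMS-11. RPMI8226 was the weakest line at all 4 SLC35B3 regions, and none was shared by 3 lines. The remaining 5 regions of the family, among them the one inside SLC35D1, a carrier of UDP-glucuronic acid, had means from -0.83 to -0.63.

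**Figure D4:**
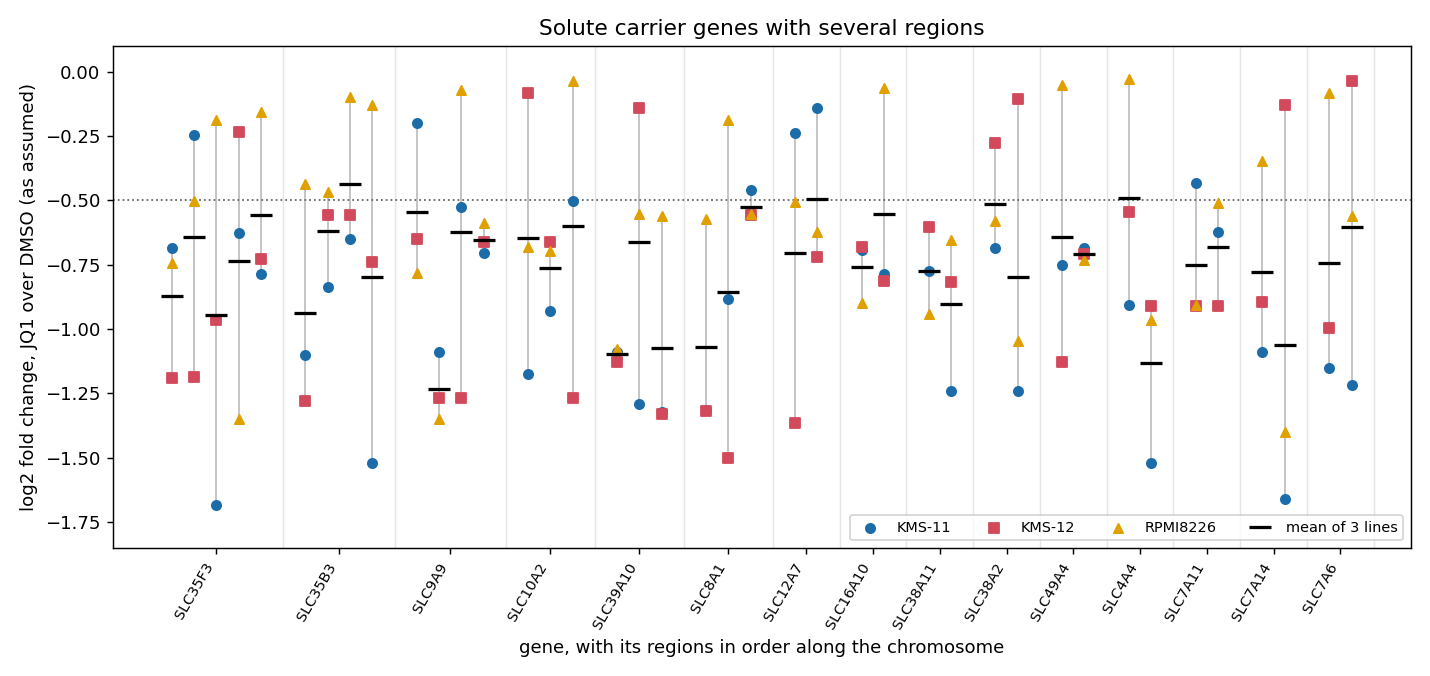
Log2 fold change (vertical axis) of the regions of 15 of the 16 solute carrier genes with more than 1 region, in order along the chromosome, in KMS-11 (circles), KMS-12 (squares) and RPMI8226 (triangles), with the mean as a bar and -0.5 dotted. The lines change order between regions of SLC35F3, SLC9A9 and SLC10A2, while RPMI8226 is the highest of the lines in all 4 regions of SLC35B3.

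Carboxylate transporters had 5 regions at 4 of 19 genes, with a median mean of -0.56 (4 past limma, 1 shared by 3 lines). SLC16A10, which carries aromatic amino acids although its family is named for monocarboxylates, had 2 regions inside it. The first (chr6:111105516-111106009) had -0.90 in RPMI8226, -0.69 in KMS-11 and -0.68 in KMS-12 in the authors' deposited table. The second (chr6:111201761-111202068) had -0.065 in RPMI8226, -0.79 in KMS-11 and -0.81 in KMS-12 in the authors' deposited table. RPMI8226 was the lowest line in the first and near 0 in the second, and the means were -0.76 ± 0.12 and -0.56 ± 0.42 (SD, n = 3 lines each). The KMS-11 value of the first was shared by 100 regions of the table and its KMS-12 value by 101. For the second the KMS-11 value was shared by 46. Besides SLC16A9, whose promoter region is described above, the 2 other regions of the class were 58.5 kb from SLC13A1, a sulfate transporter (-0.53), and 2.93 kb from SLC16A5 (-0.42).

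Carriers of organic ions, drugs and bile acids had 11 regions at 9 of 42 genes, with a median mean of -0.60 (8 past limma, 3 shared by 3 lines). SLC10A2, the bile acid importer of the ileum, was the nearest coding gene to 3 regions. Those at 733 (chr13:103799125-103799319) and 749 kb (chr13:103815595-103816139) lie close together on 1 side of the gene, nearer to the noncoding gene LOC124903203. The former had -0.70 in RPMI8226, -0.93 in KMS-11 and -0.66 in KMS-12 in the authors' deposited table, and the latter -0.035 in RPMI8226, -0.50 in KMS-11 and -1.27 in KMS-12 in the authors' deposited table. The former was shared by 3 lines with a mean of -0.76 ± 0.15, while the latter averaged -0.60 ± 0.62 (SD, n = 3 lines each), or -0.27 without KMS-12. In KMS-12 the value of the former was shared by 175 regions of the table and that of the latter by 124. The KMS-11 value of the former was shared by 26. At 73.1 kb on the other side (chr13:102970548-102970923) the mean was -0.65 ± 0.55 (SD, n = 3 lines), or -0.38 without KMS-11. The other 8 regions of the class, among them those at the cation transporter genes SLC22A5 and SLC47A1, had means from -0.82 to -0.48.

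Smaller classes lay within the range of the others. Sugar transporters had 3 regions at 3 of 36 genes, at SLC45A3, SLC37A1 and SLC5A1, with means from -0.75 to -0.68; 3 passed limma and 0 were shared by 3 lines. Fatty acid and choline transporters had 4 regions at 4 of 14 genes, with means from -0.89 to -0.45; 2 passed limma and 1 was shared by 3 lines. Of 14 vesicular transporter genes SLC18A2, which loads monoamines into vesicles, had a region inside it (chr10:117250267-117250715), with -0.34 in RPMI8226, -0.88 in KMS-11 and -0.70 in KMS-12 in the authors' deposited table and a mean of -0.64 ± 0.27 (SD, n = 3 lines). In families outside these classes, 2 of 15 genes had 3 regions. SLC49A4, a lysosomal transporter, had the most even region of the 88, 12.3 kb beyond its end (chr3:122893390-122893683), with -0.73 in RPMI8226, -0.69 in KMS-11 and -0.71 in KMS-12 in the authors' deposited table and a mean of -0.71 ± 0.024 (SD, n = 3 lines). Its KMS-11 value was shared by 22 regions of the table and its KMS-12 value by 50. The region inside SLC49A4 (chr3:122867746-122867999) was uneven, with -0.053 in RPMI8226, -0.75 in KMS-11 and -1.13 in KMS-12 in the authors' deposited table. The mean of that inner region, -0.64 ± 0.55 (SD, n = 3 lines), was -0.40 without KMS-12. No region was assigned to the 19 genes of the families classed as nucleoside and vitamin transporters, or to the 5 of those classed as phosphate transporters. Classes follow the family number, so SLC35F3, linked above to thiamine transport, is counted with its SLC35 family.

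The 13 regions that kept a limma call whichever line was left out were at SLC9A9, SLC25A4, SLC4A4, SLC39A10 (2 regions), SLC8A1, SLC25A25, SLC6A2, SLC1A3, SLC35B3, SLC35F3, SLC10A4 and SLC35E3, with means from -1.24 to -0.79. SLC25A18 was not among them, although its mean was the lowest. Of all 3838 regions 650 kept a call in the same way. The 13 of the 88 are therefore not read as a result about these genes. Spread between lines had a median SD of 0.34 over the 88 regions and 0.37 over all regions, and region width a median of 408 bp against 393 bp.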

How the data were processed

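ATAC-seq fold changes of JQ1 over DMSO in KMS-11, KMS-12 and RPMI8226 were analysed (6 libraries, 1 per line and treatment, grouped by the treatment in the labels). The series' design text mentions duplicates and RNA-seq; the labels give 1 ATAC-seq library each. In the table deposited by the authors each line has a log2 fold change, and a further column is a score of 2 or 3, how many lines share the region. Per the submitters' processing notes, which state no role, the authors name DESeq2, MACS2 and 2 builds (GRCh38.p13, hg38). For aligner, peak settings and scaling the sources used here give nothing. Base 2 was assumed since the authors named DESeq2. The direction was assumed too, with the group labelled DMSO as the denominator, which neither the labels nor the header state. The table holds folds and no counts, so depth and counting error are unknown.

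Regions were assigned to RefSeq GRCh38.p14 protein-coding genes (the shortest where several contained one), and RefSeq promoter windows gave strands, starts and sequence. That table's coordinates are GRCh38, as are those of the regions. Whole reference sequence was not used here, so regions away from gene starts are not shown. An intercept-only model in limma 3.58.1 (R 4.3.3) compared the mean over lines with 0 for all 3838 regions, with Benjamini-Hochberg adjustment and calls under 0.05. All regions shared a standard error of 0.262, since limma estimated an infinite prior. With 3 lines the smallest p of an exact sign-flip test is 0.25. The script was tested on simulated data.

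The members and lists were chosen with earlier results of these data known. Named were the 12 lowest means, the 3 largest and 3 smallest SDs, every region of a gene with several, those at promoter windows, those of 2 transporter lists (MYC-linked; plasma cell and myeloma), and 1 example of any class not yet covered. For 1 gene with several regions, values are not reported here; its regions stay in all counts. Regions named beyond this rule were chosen after their values were seen. Alternatives covered lines left out, the test, the assignment, repeated values and the fold that defines sharing.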

Additional observations from a re-analysis of the deposited data

How the results depend on the processing

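The median of the region means moved by less than the spread between lines under every alternative run on it. It ran from -0.73 to -0.66 with a line left out and was -0.74 without repeated values. Its direction could not change there, because no deposited fold is above 0. Centring of each line was not run on this median. The 73 limma calls became 24 to 48 with a line left out, when 34.1% to 55.0% of all regions were called. Without moderation limma gave 0 (32 at an unadjusted p under 0.05), as for all regions, with robust variances 73, and against a log2 fold change of 0.5 it gave 1 (and 1.77% of all regions passed), the SLC25A18 region whose low mean rests on KMS-12. Settings with fewer members gave fewer of everything: inside genes (42 regions) 35 calls, 7 shared by 3 lines and 16 lowest in KMS-12; with lncRNA genes competing (58 regions) 15 shared and 23 lowest in KMS-12; without repeated values (26 regions) 20 calls, 5 shared and 12 lowest in KMS-12. Of all regions inside a gene 87.9% were called and 24.7% shared, and of all regions without repeated values 86.0% and 21.1%. A fold of -0.75 or lower in all 3 lines was met by 6 of the 88 regions and 6.31% of all regions, and one of -1 by 2 of the 88 and 1.02% of all; at -0.5 it was 25 of the 88. Regions inside or within 50 kb of the gene gave 55 calls, 18 shared and 28 lowest in KMS-12, 1 region per gene gave 50, 18 and 26, and ranks or centring put KMS-12 lowest in 26 or 28. Of the 53 named regions 29 lost their call when KMS-11 was left out, 17 when KMS-12 was and 14 when RPMI8226 was, while 1 was gained in the last case. With each line centred on its median over all regions, 23 of the 53 named regions had a mean above 0, that is a weaker fold than the median region: SLC12A7 0.0028 and 0.21, SLC7A11 0.024, SLC45A3 0.026, SLC39A10 0.043, SLC9A9 0.053, 0.084, 0.16, SLC10A2 0.060 and 0.10, SLC16A9 0.062, SLC35F3 0.062 and 0.15, SLC49A4 0.063, SLC18A2 0.063, SLC35B3 0.086 and 0.27, SLC7A6 0.10, SLC16A10 0.15, SLC8A1 0.18, SLC38A2 0.19, SLC44A1 0.19, SLC4A4 0.21. The other 30 named regions had a centred mean below 0 but lost their limma call, and the 23 were not called either. Of all regions 13 (0.34%) were called with centring. The reported limma test is itself paired by line, since each fold sets JQ1 against DMSO within a line. No paired analysis was possible beyond this one, because the table gives no values per library, and for the same reason no unpaired fit can be set beside it. Class medians without a line were added after seeing the data. Depth is unknown, so its effect on these values was not tested.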
